A study of Mus musculus with 48 samples.

Results

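10 genes of the cellular response to mechanical load were followed across 8 inbred mouse strains and 2 limbs: the ion channel genes Piezo1 and Piezo2, the coactivator genes Yap1 and Wwtr1 (which encodes TAZ), and Ctgf, Cyr61, Ankrd1, Postn, Ptgs2 and Tagln. They were taken by symbol, and all 10 were found among the 32544 genes of the count table, where Ctgf and Cyr61 stand under these older names for Ccn2 and Ccn1. All 10 passed the filter on low counts in every comparison. On GRCm38 they lie on chromosomes 8 (Piezo1), 18 (Piezo2), 9 (Yap1 and Tagln), 3 (Wwtr1, Cyr61 and Postn), 10 (Ctgf), 19 (Ankrd1) and 1 (Ptgs2). The rule that names them used no measured value, but the 10 genes were chosen with earlier results of these data known.

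The samples were the tibial metaphysis of male mice aged 19 weeks, with a hindlimb of each mouse held in a cast. The left leg was casted for 3 weeks (the immobilized limb) and the right leg was the control, so the cast and the side of the body cannot be told apart. The strains were the classical strains C57BL/6J, A/J, 129S1/SvImJ, NZO/HlLtJ and NOD/ShiLtJ and the wild-derived strains WSB/EiJ, PWK/PhJ and CAST/EiJ, for which the labels give no added allele or agent, and each strain had 3 mice per limb. 2 A/J control libraries were nearly empty and were left out, which left 46 libraries, 22 mice with both limbs, and 1 A/J pair. No mouse without a cast entered these comparisons, so a response shared by both legs would not appear in these comparisons.

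Piezo1 and Piezo2 encode channels that open when the membrane is stretched and let calcium in. YAP and TAZ move to the nucleus when a cell is spread, stretched or on a stiff support, where they bind TEAD factors and switch on genes such as Ctgf, Cyr61 and Ankrd1. Both proteins are controlled mostly by phosphorylation and location in the cell, which RNA counts do not measure. In bone, Piezo1 in the osteoblast lineage is known for its part in the response to load, periostin (Postn) is a matrix protein of the periosteum, and cyclooxygenase 2 (Ptgs2) makes the prostaglandins that bone cells release when loaded. Transgelin (Tagln) is an actin-binding protein of smooth muscle and of contractile fibroblasts, and a target of the SRF and MRTF factors that respond to actin tension.

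Yap1, Wwtr1 and Cyr61, whose differences between limbs followed each other most closely, are shown by the 250 bases before their transcription start, 5′ to 3′ on the gene's strand. The sequences are from RefSeq on GRCm38.p6, and capitals mark the letters GGAATG, a core of the TEAD binding motif, or CATTCC, the same motif on the other strand. The windows are chr9:8004597-8004846 (Yap1), chr3:57575911-57576160 (Wwtr1) and chr3:145649986-145650235 (Cyr61), all on the minus strand.
Yap1: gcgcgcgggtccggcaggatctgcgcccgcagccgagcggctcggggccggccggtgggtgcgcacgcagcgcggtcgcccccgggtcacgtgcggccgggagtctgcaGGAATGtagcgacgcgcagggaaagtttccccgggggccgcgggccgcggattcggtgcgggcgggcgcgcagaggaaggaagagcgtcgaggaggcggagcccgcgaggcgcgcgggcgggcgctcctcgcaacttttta
Wwtr1: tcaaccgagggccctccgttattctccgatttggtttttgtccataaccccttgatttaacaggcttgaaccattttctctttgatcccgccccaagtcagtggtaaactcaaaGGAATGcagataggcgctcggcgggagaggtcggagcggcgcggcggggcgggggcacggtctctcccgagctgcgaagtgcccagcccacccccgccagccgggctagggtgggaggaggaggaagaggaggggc
Cyr61: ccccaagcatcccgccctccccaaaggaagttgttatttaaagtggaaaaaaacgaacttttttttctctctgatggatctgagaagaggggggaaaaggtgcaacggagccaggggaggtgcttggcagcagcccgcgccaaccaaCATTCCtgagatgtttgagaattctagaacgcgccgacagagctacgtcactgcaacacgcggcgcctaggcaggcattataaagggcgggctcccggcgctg
The match lay 141 bases before the start in Yap1, 136 in Wwtr1 and 103 in Cyr61. The Ankrd1 window held 2 matches, at 210 and 123 bases, and the windows of Piezo1, Postn and Ptgs2 held none. Over all 32851 promoter windows of 300 bases (250 before and 50 after the start), 14.7% held the motif on either strand. A CArG box, the motif of SRF, was in 1.63% of windows and in none of these 7 genes' windows. Such a match describes letters only, not a bound site. The far end of the Yap1 window touches the first exon of Gm45494, a non-coding gene that starts in the opposite direction.

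The libraries used held between 5253408 and 14744056 counts, with a median of 7593532.5. Immobilized NZO/HlLtJ libraries were the deepest, at 14024951 ± 673054 counts (SD, n = 3) against 7791314 ± 58622 in the control limbs. Osteoblast markers, which define the labelled tissue, summed to at least 4760 CPM (counts scaled to library size with edgeR's TMM factors) in every library. Markers of skeletal muscle ranged from 35.27 to 82440 CPM, and 14 of 20 of them fell in the immobilized limbs. In the same contrast 6 of 11 osteoblast markers and 5 of 9 macrophage and osteoclast markers rose, and 4 of 8 B cell markers fell. Among all genes tested, 4.58% rose and 2.86% fell. In such bulk tissue, fewer cells of a type and less RNA per cell cannot be told apart.

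Levels between genes were compared as CPM per kilobase of exon. Postn was the most abundant, with a median of 45.7 CPM per kb over 22 control libraries, followed by Ctgf at 30.9 and Cyr61 at 22.3. Piezo1 stood at 10.5 CPM per kb, against 0.13 for Piezo2. Of the coactivators, Wwtr1 stood at 5.26 CPM per kb and Yap1 at 2.86. Before scaling by length their median CPM was alike, at 25.2 and 26.5. Their order thus rests on the exon lengths used, 4779 and 9257 bases, which join all annotated exons of a gene. Tagln stood at 7.83, Ankrd1 at 0.693 and Ptgs2 at 0.0917 CPM per kb, so the last of these was close to absent in most control limbs.

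The first question was whether these genes differed between the limbs on average over the 8 strains. At a false discovery rate of 0.05 over 16882 genes (edgeR's quasi-likelihood test with the mouse as block), 0 of the 10 genes passed, where 7.43% of all genes did (4.58% as higher and 2.86% as lower in the cast limb). Of the 10, 3 had an unadjusted p under 0.05 (Wwtr1, Postn and Ptgs2), and DESeq2 called 1, Ptgs2. The median log2 change of the 10 was 0.12, against 0.01 over all genes tested. The plot of limb effects by strain shows how far the strains differ around these means.

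**Figure D1:**
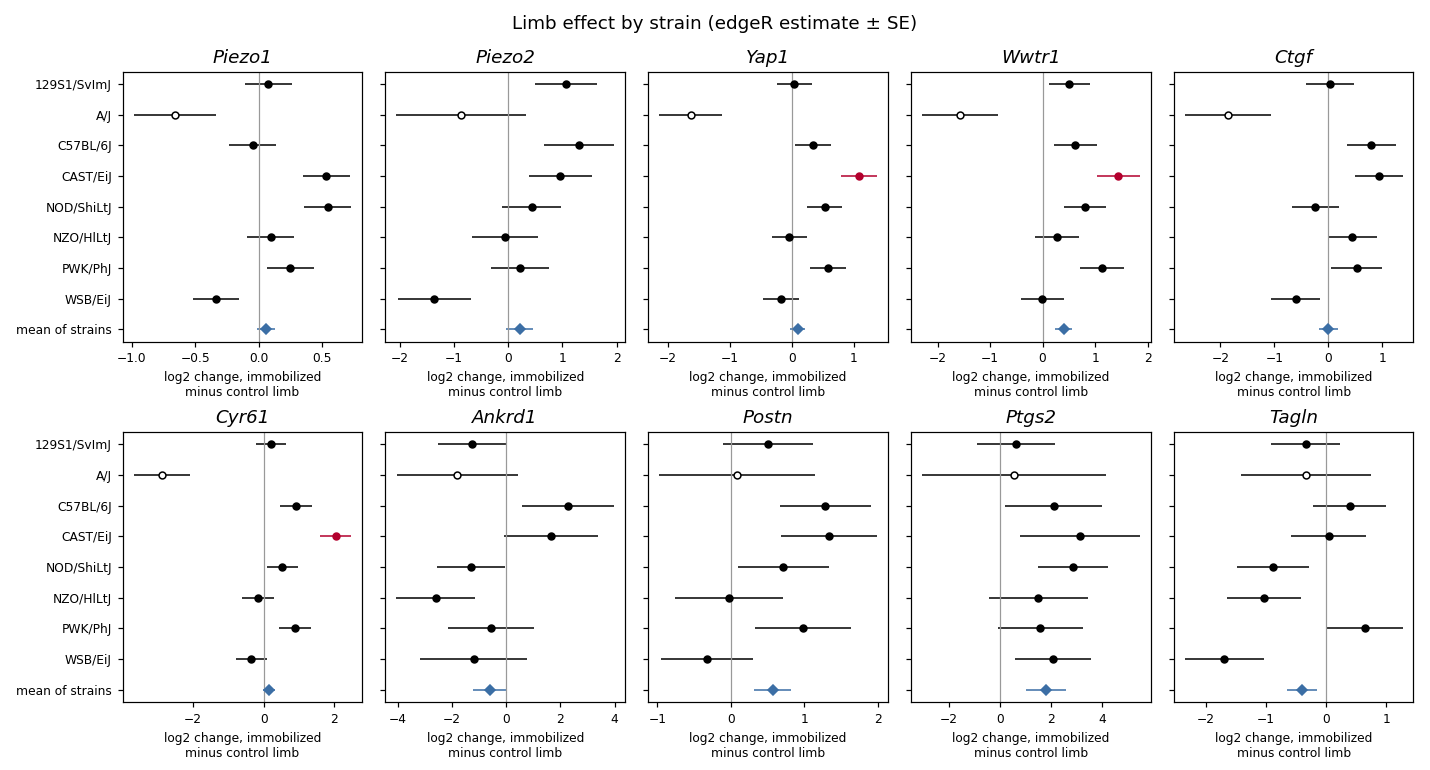
Limb effect of each gene (x axis: log2 change, immobilized minus control limb, edgeR estimate ± SE) in 8 strains and as the mean over strains (diamonds). Red points pass a false discovery rate of 0.05, the open point is the single A/J pair, and the x scales differ between genes. The only red points are Yap1, Wwtr1 and Cyr61 in CAST/EiJ.

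Among the channels, Piezo1 varied least of all 10 genes. Its level in the control limbs ran from 84.3 to 198 CPM with a median of 104, and in the immobilized limbs from 72 to 163 CPM with a median of 124. The limbs overlapped over almost the whole range. The mean limb effect was 0.06 ± 0.07 (log2, SE; adjusted p = 0.727), with 13 of 22 mice higher in the cast limb. Piezo2, at a median of 2.24 CPM in control limbs and 3.53 CPM in immobilized limbs, had 3 to 198 counts per control library. Its mean limb effect was 0.21 ± 0.25 (adjusted p = 0.69), with 15 of 22 mice higher.

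The direction of the Piezo1 estimate varied among the strains. In CAST/EiJ it went from 104, 93.9 and 89.9 CPM to 131, 161 and 126 CPM, and in NOD/ShiLtJ from 91.5, 103 and 95.3 CPM to 154, 110 and 163 CPM. Every immobilized limb of these strains lay above every control limb of the same strain. The share of all genes with such a gap was not counted, here or for the gaps given below. In WSB/EiJ the control limbs held 117, 162 and 198 CPM and the immobilized limbs 111, 122 and 138 CPM, lower in all 3 mice but with overlapping groups. None of the 3 passed the test: the log2 effects were 0.53 ± 0.19 (adjusted p = 0.0627) in CAST/EiJ, 0.54 ± 0.19 (adjusted p = 0.0784) in NOD/ShiLtJ and -0.34 ± 0.18 (adjusted p = 0.81) in WSB/EiJ. The test of any difference among the 8 limb effects gave an adjusted p of 0.16 in edgeR and 0.0424 in DESeq2.

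Among other channel genes, 1 of 16 tested rose in the mean limb effect and 0 fell. It was Trpv4, a calcium channel of chondrocytes and osteoclasts that opens with osmotic and mechanical stress (0.64 ± 0.16, adjusted p = 0.025, higher in 18 of 22 mice). The 16 include both Piezo genes, and their median log2 change was 0.08. Over all genes tested, 4.58% rose and 2.86% fell in this contrast.

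When strains were tested one at a time, members passed in CAST/EiJ and in none of the other 7. Of the 10 genes 3 rose there, Yap1, Wwtr1 and Cyr61, and 0 fell. In that strain 13.9% of all genes passed the test in either direction and 8.38% passed as higher, and the median log2 change was 1.21 over the 10 genes and -0.01 over all genes.

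Yap1 was at 21.1, 24.4 and 14.4 CPM in the control limbs of CAST/EiJ mice 2, 3 and 4, and at 30.5, 56 and 40.9 CPM in their cast limbs. Groups did not overlap, and the rise was 2.12-fold (log2 1.08 ± 0.29, adjusted p = 0.0193). Wwtr1 was at 15.9, 18.1 and 13 CPM in the control limbs and at 33.7, 54.4 and 40.6 CPM in the cast limbs of the same mice. This again left a gap between the groups, with a 2.72-fold rise (1.44 ± 0.41, adjusted p = 0.027). Cyr61, a secreted matrix protein that binds integrins, was at 91.2, 69.9 and 36.7 CPM in the control limbs and at 253, 277 and 232 CPM in the cast limbs. The lowest cast limb stood far above the highest control limb, and the rise of 4.1-fold was the largest of the 3 (2.04 ± 0.44, adjusted p = 0.00678).

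Ctgf, the other CCN target, was at 82.8, 86.2 and 40.8 CPM in the CAST/EiJ control limbs and at 161, 153 and 82.7 CPM in the cast limbs. It was higher in all 3 mice, yet the groups overlapped slightly and the change missed the threshold (0.93 ± 0.44, adjusted p = 0.168). In Ankrd1, the third classical target, 2 of 3 mice were higher and the estimate was 1.65 ± 1.73 (adjusted p = 0.567).

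The calls in CAST/EiJ rested on few mice. Without mouse 4 none of the 3 passed, with effects of 0.87 for Yap1 (adjusted p = 0.158), 1.34 for Wwtr1 (0.14) and 1.73 for Cyr61 (0.0754). Without mouse 3 only Cyr61 passed, and without mouse 2 Wwtr1 missed the threshold (adjusted p = 0.0724). Without NZO/HlLtJ mouse 5, which enters the shared estimate of the spread, Piezo1 and Postn passed in CAST/EiJ as well, for 5 genes in all. With no block for the mouse, only Cyr61 passed, while Yap1 (adjusted p = 0.102) and Wwtr1 (adjusted p = 0.0982) kept effects of 1.09 and 1.46.

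Osteoblast RNA rose in the same 3 limbs. The osteoblast markers summed to 16330, 9454 and 11620 CPM in the CAST/EiJ control limbs and to 82920, 186300 and 144000 CPM in the cast limbs, and 8 of 11 passed as higher in that strain. Their mean log2 CPM, taken as a score, was higher in the cast limb by 2.28 on average (1.47 to 2.75). With this score as a covariate, 0 of the 10 genes passed in CAST/EiJ and the estimates turned negative: -0.14 for Yap1 (adjusted p = 0.974), -0.43 for Wwtr1 (0.898) and -0.17 for Cyr61 (0.973). Because the score was higher in every CAST/EiJ cast limb, the limb and the osteoblast share cannot be told apart within the strain. Other markers differed between the limbs of this strain too. Of 7 adipocyte markers 4 passed as higher (score difference 0.95 to 2.18), and of 8 B cell markers 3 passed as lower (-1.83 to -1). The scores of osteocytes (0.56 to 1.57), smooth muscle and pericytes (0.17 to 0.93) and macrophages and osteoclasts (0.65 to 1) were higher, and that of neutrophils (-0.66 to -0.47) lower, in all 3 mice. The part of these cells in the result was not tested. Skeletal muscle markers did not move one way there (score difference -3.68 to 1.36). With the muscle score as covariate, the 3 genes and also Ankrd1 and Postn passed in CAST/EiJ.

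**Figure D2:**
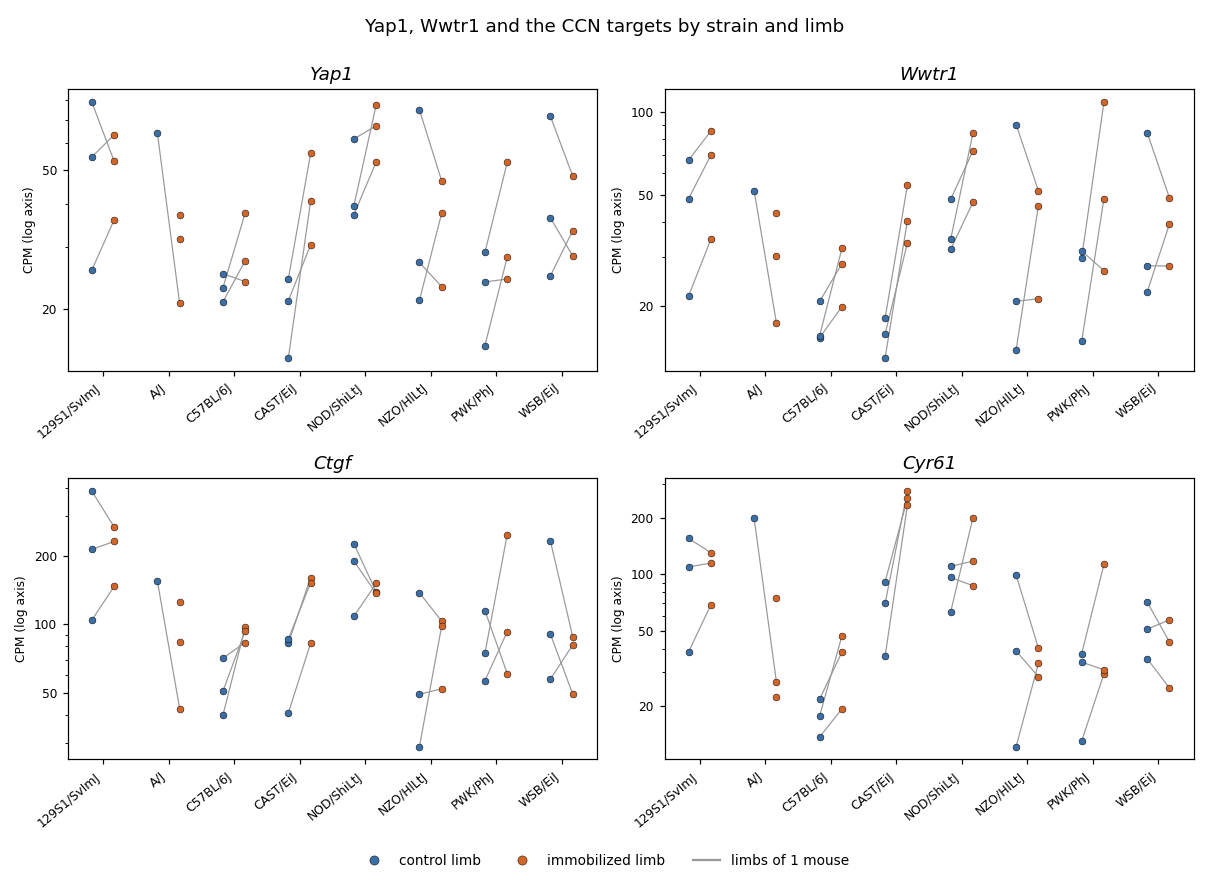
Level of Yap1, Wwtr1, Ctgf and Cyr61 in each of 46 libraries (y axis: CPM, log scale) by strain, with control limbs in blue, immobilized limbs in orange and lines joining the limbs of 1 mouse. All 3 CAST/EiJ mice were higher in the cast limb in each gene; the A/J mouse with both limbs was lower in each, and the NZO/HlLtJ mice went both ways.

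The single A/J pair went the other way. With 1 pair, A/J gives no spread of its own, so its p-values borrow the spread between mice of the other strains. Its control and cast limbs were at 64.1 and 20.7 CPM for Yap1, 51.9 and 17.4 CPM for Wwtr1, 155 and 42.6 CPM for Ctgf, and 198 and 26.8 CPM for Cyr61. None of the 10 genes passed there (background 3.99%): the closest were Cyr61, at -2.89 ± 0.80 (adjusted p = 0.0512), and Yap1, at -1.63 ± 0.51 (adjusted p = 0.0689). An unadjusted p under 0.05 was found for 4 genes, and DESeq2 called 2, Yap1 and Cyr61. Osteoblast markers in this pair summed to 108000 CPM in the control limb and 18400 CPM in the cast limb, and the median log2 effect of the 10 genes was -1.22. Skeletal muscle markers summed to 16360 and 519.4 CPM in the same limbs (score difference -5.07). The adipocyte score differed by -3.32, the B cell score by -1.60 and the tendon and periosteal fibroblast score by -1.24. Smooth muscle and pericyte markers differed by -1.04 in score, Schwann cell markers by -0.90, growth plate chondrocyte markers by 0.99 and neutrophil markers by 2.28. The part of these cells in the result was not tested. The other A/J cast limbs held 22.1 and 74.8 CPM of Cyr61, so all 3 lay far below the lone control library.

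The mean over strains depended on this pair. Without it, 4 genes passed in the mean limb effect: Yap1 (0.34, adjusted p = 0.0398), Wwtr1 (0.69, adjusted p = 0.00576), Cyr61 (0.58, adjusted p = 0.0247) and Ptgs2 (1.996, adjusted p = 0.0469). The share of all genes passing in this refit is not given here, so the 4 cannot be set against a background. With all 22 mice, Yap1 stood at 0.09 ± 0.11 (adjusted p = 0.716), Wwtr1 at 0.40 ± 0.16 (adjusted p = 0.138, unadjusted 0.0232) and Cyr61 at 0.15 ± 0.18 (adjusted p = 0.697). Ctgf was at 0.00 ± 0.18 (adjusted p = 1). Wwtr1 was the steadiest of these, higher in the cast limb of 17 of 22 mice, against 15 for Yap1 and 14 each for Ctgf and Cyr61. Leaving out PWK/PhJ mouse 6 alone also brought Wwtr1 past the threshold (0.47, adjusted p = 0.0397).

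In the 6 other strains none of the 10 genes passed. Among the coactivators, PWK/PhJ Wwtr1 had the lowest unadjusted p in these strains (0.0151), and NOD/ShiLtJ Wwtr1 the lowest adjusted p (0.81 ± 0.40, adjusted p = 0.227). PWK/PhJ Wwtr1 went from 29.8, 14.9 and 31.5 CPM in mice 3, 4 and 6 to 108, 48.7 and 26.8 CPM (1.13 ± 0.42, adjusted p = 0.286). Mice 3 and 4 were higher in the cast limb by 1.85 and 1.69 on the log2 scale, while mouse 6 differed by -0.23. In NZO/HlLtJ, mice 4 and 5 moved in opposite directions in all 4 genes: Yap1 went from 74.8 to 46.7 CPM in mouse 4 and from 21.1 to 37.7 CPM in mouse 5. Between the limbs of these mice the smooth muscle and pericyte score differed by -1.17 and 0.6. The osteoblast score differed by 0.33 and 2.42, and the part of these cells was not tested. The unadjusted p was under 0.05 for 1 gene each in NOD/ShiLtJ, PWK/PhJ and WSB/EiJ and for 0 in 129S1/SvImJ, C57BL/6J and NZO/HlLtJ, and DESeq2 called 0 in all 6. The share of all genes called was 8.33% in NOD/ShiLtJ, 0.0889% in PWK/PhJ, 0% in 129S1/SvImJ and 0.00592% in each of C57BL/6J, NZO/HlLtJ and WSB/EiJ.

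Whether the limb effect differed among strains was tested directly. None of the 10 genes passed (background 2.5%), with the lowest adjusted p for Cyr61 (0.0658), then Yap1 (0.118). The unadjusted p was under 0.05 for 3 genes and DESeq2 called 3: Cyr61 (0.000118), Yap1 (0.0111) and Piezo1 (0.0424). Cyr61 passed in edgeR without NZO/HlLtJ mouse 4 (0.0369), NZO/HlLtJ mouse 5 (0.0086) or PWK/PhJ mouse 6 (0.0371), and Yap1 without NZO/HlLtJ mouse 5 (0.0275).

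Across mice the 4 genes moved together. Over the 22 differences between limbs, Yap1 correlated with Wwtr1 at Pearson r = 0.93 (Spearman 0.94), with Cyr61 at 0.93 (0.88) and with Ctgf at 0.82 (0.80). Wwtr1 correlated with Cyr61 at 0.90 (0.84) and with Ctgf at 0.87 (0.85). For each of these 5 pairs the adjusted permutation p over 45 relations was at most 0.000129 for Pearson and 0.00045 for Spearman (two-sided, 100000 permutations). Without the 2 mice farthest from the median of the first gene named, r was 0.88, 0.87, 0.76, 0.83 and 0.85 in that order. With each strain's mean removed it was 0.87, 0.82, 0.87, 0.84 and 0.93. Piezo1 followed Yap1 less closely (r = 0.69, rho = 0.65, adjusted p = 0.00151 and 0.00495). For this pair r was 0.56 without the 2 mice farthest from the Piezo1 median and 0.40 within strains. Permutations shuffled mice over all strains, so the p-values of this paragraph also draw on differences between strains.

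**Figure D3:**
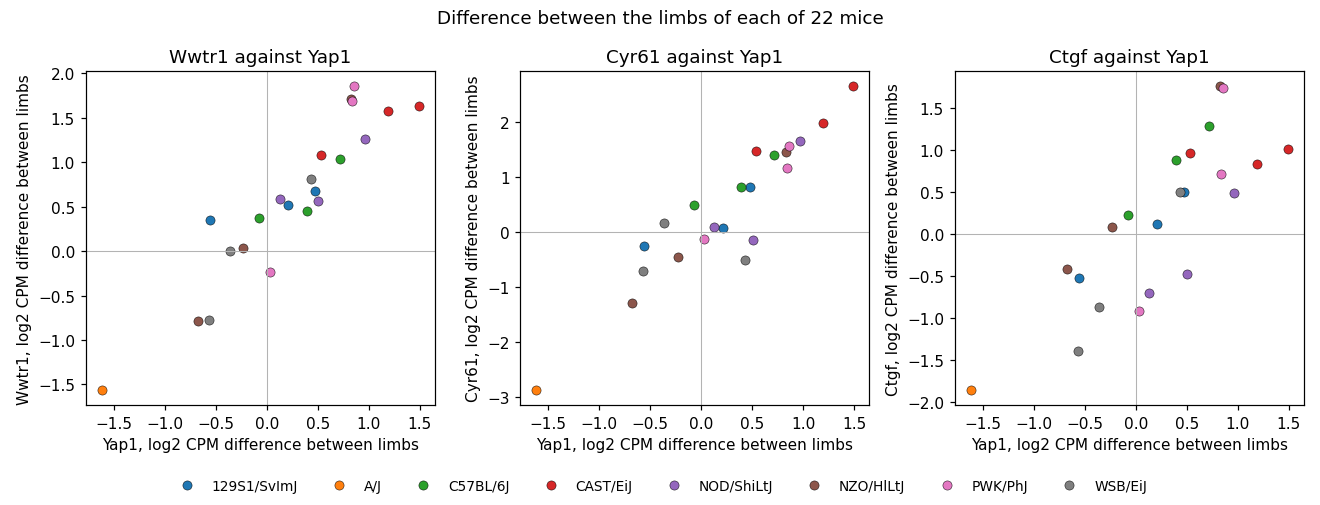
Difference between the limbs of each of 22 mice (log2 CPM, immobilized minus control) in Wwtr1, Cyr61 and Ctgf (y axes) against Yap1 (x axis), coloured by strain. Points run along the diagonal in each panel, with r between 0.82 and 0.93, and the A/J mouse is the lowest point.

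The same differences also followed all 3 marker scores that were compared with them. Against the osteoblast score, r was 0.82 for Yap1, 0.80 for Wwtr1, 0.82 for Cyr61 and 0.60 for Ctgf (rho 0.78, 0.78, 0.76 and 0.57). Against the score of smooth muscle and pericyte markers it was 0.81, 0.86, 0.79 and 0.85 (rho 0.81, 0.84, 0.77 and 0.88). All 8 had an adjusted permutation p of at most 0.00525 for Pearson and 0.0102 for Spearman over 30 relations. Without the 2 most distant mice, r was 0.72, 0.71, 0.72 and 0.47 for osteoblasts and 0.78, 0.81, 0.76 and 0.86 for smooth muscle. Within strains it was 0.70, 0.75, 0.81 and 0.61, then 0.77, 0.84, 0.68 and 0.84. Against the skeletal muscle score r was 0.57, 0.54, 0.62 and 0.63 (rho 0.56, 0.53, 0.57 and 0.63), with an adjusted permutation p of at most 0.0125 for Pearson and 0.0182 for Spearman. It was 0.52, 0.53, 0.56 and 0.58 without the 2 most distant mice and 0.54, 0.49, 0.51 and 0.49 within strains. Piezo1 followed the osteoblast score at r = 0.78 (rho = 0.71, 0.69 without the 2 most distant mice, 0.40 within strains). Its r was 0.46 against the smooth muscle and pericyte score and 0.04 against the skeletal muscle score. For Piezo2, r was 0.66 against skeletal muscle, 0.64 against smooth muscle and pericytes and 0.48 against osteoblasts (0.64, 0.59 and 0.46 within strains).

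Of all genes tested, those most like each coactivator in their limb differences were as close as the members themselves. For Yap1 they were Pard3, Gna11 and Ccser2 (each r = 0.96), and for Wwtr1 Scara3 (0.96), Gli3 (0.95) and Prrx1 (0.95), the last of these a transcription factor of limb mesenchyme. For Cyr61 they were Zfp532 (0.95), Gna11 (0.94) and Hspg2 (0.94), and for Ctgf Enpp2, Neo1 and Tns2 (each 0.92). For Piezo1 they were Plxnb2 (0.91), Klf4 (0.90) and Arhgap24 (0.89).

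Other genes of the pathway were also tested in the mean limb effect, where 4.58% of all genes rose and 2.86% fell. Of 23 Hippo kinases and regulators, 2 rose and 1 fell: Frmd6, which encodes the upstream regulator Willin (0.33 ± 0.07, adjusted p = 0.014), Map4k4, a kinase that can act on LATS (0.30 ± 0.07, adjusted p = 0.0185), and Taok2, of a kinase family that acts on MST (-0.17 ± 0.05, adjusted p = 0.0438). Of 9 tested TEAD factors and cofactors, Yap1 and Wwtr1 among them, 0 passed in edgeR, 3 had an unadjusted p under 0.05 and DESeq2 called 1. The smallest p was that of Vgll2, a TEAD cofactor of muscle and the gene DESeq2 called (-1.82 ± 0.60, adjusted p = 0.0792 in edgeR). Of 22 YAP and TAZ targets, 0 passed in edgeR and 1 had an unadjusted p under 0.05, Ccdc80 (0.47 ± 0.15, adjusted p = 0.0673), which DESeq2 called. Their median log2 change was 0.07. These 22 include Ctgf, Cyr61 and Ankrd1. In CAST/EiJ 5 of the 22, Cyr61 among them, passed as higher and 1 as lower, where 8.38% of all genes passed as higher and 13.9% in either direction. The median there was 0.60. In the CCN family, Ctgf and Cyr61 among them, 1 of 6 rose, Wisp2, a member that lacks the C-terminal domain (0.65 ± 0.18, adjusted p = 0.036, higher in 19 of 22 mice).

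Postn, a matrix protein of periosteum and tendon, was the most abundant of the 10 genes. It ran from 99.3 to 3570 CPM in the control limbs (median 398) and from 186 to 2760 CPM in the immobilized limbs (median 533). Its mean limb effect was 0.57 ± 0.25 (adjusted p = 0.183, unadjusted 0.0373), with 17 of 22 mice higher. In 129S1/SvImJ, C57BL/6J, CAST/EiJ and NOD/ShiLtJ all 3 mice were higher. C57BL/6J went from 99.3, 177 and 216 CPM to 217, 523 and 484 CPM, with no overlap of the groups and an effect of 1.29 ± 0.63 (adjusted p = 0.969). In NZO/HlLtJ mouse 5 went from 124 to 1011 CPM while mouse 4 went from 3570 to 1262 CPM. The tendon and periosteal fibroblast score differed by 1.4 in mouse 5 and by -0.64 in mouse 4, and its part was not tested.

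The muscle covariate moved Postn past the threshold (1.38, adjusted p = 0.0102), and the osteoblast covariate took it to -0.04. Its limb differences followed the muscle score (r = 0.74, rho = 0.81, adjusted p = 2e-04 and 1e-04; 0.77 without the 2 most distant mice, 0.75 within strains). They followed the smooth muscle and pericyte score as closely (r = 0.77, rho = 0.77, adjusted p = 0.000136 and 0.000133; 0.67 without the 2 most distant mice, 0.73 within strains). The genes most like Postn were Col12a1 (r = 0.92), Tnn (0.88) and Aspn (0.87), which encode matrix proteins of connective tissue. The closest to Piezo2 were Col12a1 (0.85), Tnn (0.85) and Thbs2 (0.83), and it correlated with Postn at r = 0.80 (rho = 0.75, adjusted p = 7.5e-05 and 0.000562; 0.72 without the 2 most distant mice, 0.81 within strains). Of 13 matricellular genes, Postn among them, 3 rose and 0 fell: Sparc (1.01 ± 0.19, adjusted p = 0.00613), Spp1 (0.68 ± 0.16, adjusted p = 0.0207) and Tgfbi (0.35 ± 0.10, adjusted p = 0.0367). Sparc and Spp1 encode abundant proteins of bone matrix, and Spp1 also stands among the osteoblast markers. The share of all genes that rose in the mean limb effect was 4.58%.

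Ptgs2 had the largest estimate of the mean limb effect and the lowest median level per kb in the control limbs. It held 0 to 290 counts in control libraries and 0 to 1528 counts in immobilized libraries, with medians of 0.42 and 1.18 CPM. The mean limb effect was 1.82 ± 0.78 (3.52-fold; adjusted p = 0.17, unadjusted 0.0331), and 17 of 22 mice were higher in the cast limb. The call depended on the tool and on single mice: DESeq2 gave 1.83 with an adjusted p of 0.0086, edgeR without the mouse block 2.12 with 0.0391, and edgeR without NZO/HlLtJ mouse 4 2.37 with 0.0156. Across all 22 fits that left out 1 mouse, the effect ran from 1.43 to 2.37.

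The highest values came from 3 mice. NZO/HlLtJ mouse 5 went from 0.515 to 107 CPM, the highest Ptgs2 level of any library, and NZO/HlLtJ mouse 4 went the other way, from 32.9 to 4.32 CPM. NOD/ShiLtJ mouse 4 went from 0.681 to 20.4 CPM, while the other NOD/ShiLtJ mice went from 0.764 to 4.31 and from 0.925 to 2.1 CPM. All 3 NOD/ShiLtJ cast limbs lay above all control limbs of the strain (2.88 ± 1.37, adjusted p = 0.208). The test of differences among strains gave an adjusted p of 0.987 for this gene. Growth plate chondrocyte markers summed to 221 and 2818 CPM in the control and cast limbs of NZO/HlLtJ mouse 4. In those of NZO/HlLtJ mouse 5 they summed to 68.7 and 4044 CPM. The part of these cells in the Ptgs2 levels was not tested.

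Of 15 tested genes of prostaglandin synthesis, transport and reception, Ptgs2 among them, 2 rose and 0 fell: Hpgd, the enzyme that degrades prostaglandins (0.48 ± 0.13, adjusted p = 0.0294), and Slco2a1, the transporter that takes them up (0.56 ± 0.15, adjusted p = 0.0318). They were higher in 17 and 18 of 22 mice. In this contrast 4.58% of all genes rose. Ptgs2 limb differences had Lpar4 (r = 0.81), Ptp4a1 (0.81) and Cblb (0.76) closest to them.

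Ankrd1 and Tagln were the 2 members whose mean estimate was negative. Ankrd1, a titin-associated stress protein of muscle, ran from 0 to 54.7 CPM in the control limbs (median 1.999) and from 0 to 31.5 CPM in the immobilized limbs (median 2.06). The mean limb effect was -0.60 ± 0.61 (adjusted p = 0.625), with 9 of 22 mice higher. Single mice went far in both directions, from 54.7 to 3.02 CPM in NOD/ShiLtJ mouse 4 and from 1.04 to 31.5 CPM in CAST/EiJ mouse 2.

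Ankrd1 moved with muscle RNA. Its limb differences correlated with the skeletal muscle score at r = 0.79 (rho = 0.84, adjusted p = 7.5e-05 and 1e-04), at 0.80 without the 2 most distant mice and at 0.73 within strains. The differences also followed the smooth muscle and pericyte score (r = 0.63, rho = 0.65, adjusted permutation p = 0.00324 and 0.00312). There r was 0.64 without the 2 most distant mice and 0.60 within strains. In NOD/ShiLtJ mouse 4, muscle markers summed to 82440 CPM in the control limb and 2616 CPM in the cast limb. In CAST/EiJ mouse 2 they summed to 872 and 2343 CPM. With the muscle score as covariate the mean estimate for Ankrd1 was 1.67 (adjusted p = 0.0836). Its closest genes were Murc (r = 0.84), Lrrn1 (0.83) and Xirp1 (0.83), of which Murc and Xirp1 are muscle genes. Of 3 muscle ankyrin repeat genes, Ankrd1 included, 1 fell, Ankrd23 (-1.44 ± 0.37, adjusted p = 0.0298), against 2.86% of all genes.

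Tagln ran from 7.42 to 133 CPM in the control limbs (median 15.6) and from 7.21 to 39.5 CPM in the immobilized limbs (median 15.4). The medians were alike, and 5 control limbs lay above the highest cast limb. They held 133 CPM in WSB/EiJ mouse 5, 86.6 CPM in NZO/HlLtJ mouse 4, 68.6 CPM in NOD/ShiLtJ mouse 4, and 51.8 and 41.9 CPM in 129S1/SvImJ mice 3 and 2. The cast limbs of these mice held 11.3, 16.8, 15.8, 27.6 and 39.5 CPM. The mean limb effect was -0.40 ± 0.24 (adjusted p = 0.345), with 9 of 22 mice higher. The largest strain estimate was in WSB/EiJ (-1.70 ± 0.65, adjusted p = 0.716, unadjusted 0.0186).

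Tagln limb differences followed the smooth muscle and pericyte score at r = 0.82 (rho = 0.81, adjusted p = 5e-05 and 0.000133; 0.73 without the 2 most distant mice, 0.85 within strains). Acta2 (r = 0.90), Nov (0.88) and Myh11 (0.87) were closest to it, and Acta2 and Myh11 are smooth muscle genes that belong to that score. Tagln also followed the skeletal muscle score (r = 0.59, rho = 0.63, adjusted permutation p = 0.00643 and 0.0039). There r was 0.56 without the 2 most distant mice and 0.54 within strains. Of 18 tested SRF and MRTF contractile genes, Tagln among them, 7 had an unadjusted p under 0.05 and DESeq2 called 5 as lower (Lmod1, Myh11, Synpo2, Tpm1 and Tpm2). In edgeR 2 fell and 0 rose, Synpo2 (-1.17 ± 0.33, adjusted p = 0.0397) and Lmod1 (-1.14 ± 0.33, adjusted p = 0.0433), which encode actin-associated proteins of smooth and striated muscle. Of 20 integrin and focal adhesion genes, 3 rose: Itgav (0.59 ± 0.14, adjusted p = 0.0236), Bcar1 (0.42 ± 0.11, adjusted p = 0.0307) and Src (0.23 ± 0.07, adjusted p = 0.0458). Itgav encodes the αv integrin chain, which binds periostin, osteopontin and CCN proteins. Of all genes tested, 4.58% rose and 2.86% fell in the mean limb effect.

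**Figure D4:**
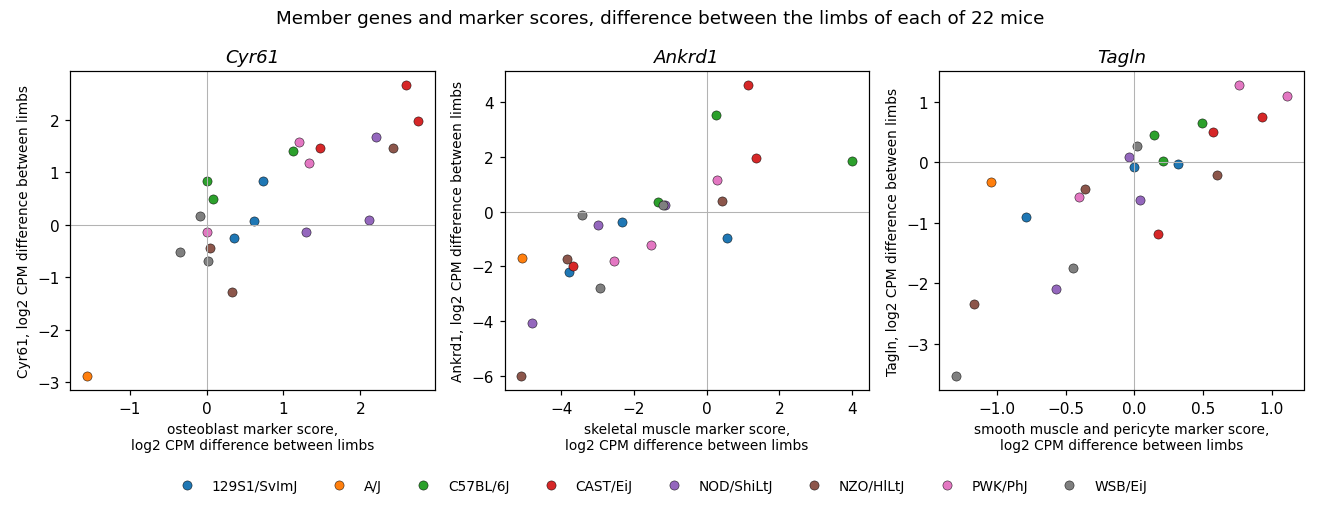
Difference between the limbs of each of 22 mice (log2 CPM, immobilized minus control) in Cyr61, Ankrd1 and Tagln (y axes) against that of a marker score (x axes: osteoblast, skeletal muscle, and smooth muscle and pericyte), coloured by strain. Each gene followed the score shown, with r of 0.82, 0.79 and 0.82, but not that score alone. Cyr61 and Ankrd1 also followed the smooth muscle and pericyte score (r = 0.79 and 0.63), and Tagln the skeletal muscle score (0.59).

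The second question was how the strains differ within 1 limb. In the control limbs 4 of the 10 genes differed among the 8 strains: Ptgs2 (adjusted p = 0.00311), Ankrd1 (0.0137), Cyr61 (0.0161) and Tagln (0.0249). This is against 40.6% of all 16493 genes tested, so the share is near the background. Ctgf (0.0508), Piezo1 (0.0546), Yap1 (0.0649) and Postn (0.0784) lay just outside the threshold. In the immobilized limbs 7 of 10 differed, against 50.3% of 15478 genes: Cyr61 (0.000224), Ptgs2 (0.00396), Ankrd1 (0.00893), Piezo2 (0.0106), Postn (0.0131), Ctgf (0.0459) and Yap1 (0.049). The calls of Ctgf and Yap1 depended on single libraries: in the 24 fits that left out 1 library, Ctgf missed the threshold in 17 (adjusted p up to 0.138) and Yap1 in 14 (up to 0.132), and with no filter on low counts both missed it (0.0911 and 0.0626). Reads of all strains were assigned to mm10, the genome of C57BL/6J, per the submitters' processing notes, and how far sequence differences lowered counts in other strains was not tested.

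When 1 strain was compared with the mean of the other 7 in the control limbs, 8.83% of all genes passed in C57BL/6J, 10.8% in NOD/ShiLtJ, 4.61% in NZO/HlLtJ and 6.54% in WSB/EiJ, and 1 of the 10 genes passed in each. In the immobilized limbs the share was 9.9% in 129S1/SvImJ (2 of the 10 genes), 18.6% in CAST/EiJ (2), 19.6% in NOD/ShiLtJ (4), 6.81% in NZO/HlLtJ (1) and 8.05% in WSB/EiJ (1). Cyr61 had the lowest p over strains in the immobilized limbs. In the control limbs its mean was lowest in C57BL/6J, at 13.6, 17.6 and 21.6 CPM, which was below the mean of the other 7 strains by -1.999 ± 0.54 on the log2 scale (adjusted p = 0.0281). PWK/PhJ, the next lowest, ranged from 12.9 to 37.7 CPM and overlapped it. The A/J control library was highest at 198 CPM, then came 129S1/SvImJ (38.6 to 155 CPM) and NOD/ShiLtJ (62.9 to 110 CPM), and all further neighbours in the order overlapped. Without any 1 of the 3 C57BL/6J libraries the C57BL/6J call was lost (adjusted p = 0.104 to 0.128), as it was with the muscle covariate (-1.46, adjusted p = 0.445).

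In the immobilized limbs the order changed at its top. CAST/EiJ led with 232 to 277 CPM and overlapped no other strain, 2.20 ± 0.31 above the mean of the other 7 (log2, adjusted p = 2.92e-05). This held in all 24 fits that left out 1 library, at 2.13 to 2.33. NOD/ShiLtJ followed with 86.8 to 200 CPM (1.14 ± 0.34, adjusted p = 0.0247, and 0.267 without NOD/ShiLtJ immobilized replicate 6). NZO/HlLtJ was lowest, at 28.5 to 40.4 CPM.

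Yap1 in the control limbs was lowest in CAST/EiJ, at 14.4 to 24.4 CPM, and highest in A/J (64.1 CPM, 1 library) and 129S1/SvImJ (25.8 to 78.7 CPM). All 7 pairs of neighbours in the order overlapped. In the immobilized limbs NOD/ShiLtJ was highest, at 52.9 to 77.3 CPM, above the other 7 by 0.85 ± 0.23 (adjusted p = 0.0155, and 0.12 without NOD/ShiLtJ immobilized replicate 6, and 0.0685 without replicate 4). CAST/EiJ was the third highest there, at 30.5 to 56 CPM, after being last among the control limbs. Wwtr1 kept the same ends: CAST/EiJ lowest in the control limbs (13 to 18.1 CPM), NOD/ShiLtJ highest in the immobilized limbs (47.2 to 83.8 CPM), with an adjusted p over strains of 0.153 and 0.0963.

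Ctgf was highest in 129S1/SvImJ in both limbs, at 104 to 386 CPM in the control limbs and 147 to 268 CPM in the immobilized limbs. The latter lay 1.05 ± 0.30 above the other 7 strains (adjusted p = 0.0271, and 0.193 and 0.212 without replicate 3 and replicate 2). Tagln was also above the others in immobilized 129S1/SvImJ limbs, at 21.4 to 39.5 CPM (0.97 ± 0.29, adjusted p = 0.0389, lost in 6 of 24 fits that left out 1 library, up to 0.433). In the control limbs Tagln ran from a mean of 9.68 CPM in PWK/PhJ to 60 CPM in WSB/EiJ, which rests on the library at 133 CPM.

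For Piezo1, WSB/EiJ was the highest strain in the control limbs, at 117 to 198 CPM, above the other 7 by 0.57 ± 0.16 (adjusted p = 0.0364). Without WSB/EiJ control replicate 5 this was 0.38 (adjusted p = 0.334), and the call was lost in 10 of 21 fits that left out 1 library. The whole range of strain means in the control limbs was 1.73-fold, the smallest of the 10 genes. Piezo2 was lowest in immobilized WSB/EiJ limbs, at 0.486 to 1.92 CPM from 4 to 15 counts, and differed from the other strains by -1.95 ± 0.56 (adjusted p = 0.0341, and 0.228 without WSB/EiJ immobilized replicate 2). The highest Piezo2 level of any library, 22.5 CPM, was in the control limb of NZO/HlLtJ mouse 4.

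Postn in the immobilized limbs and Ankrd1 in the control limbs had their highest strain mean in NOD/ShiLtJ. In the control limbs Postn was highest on average in NZO/HlLtJ (124 to 3570 CPM), which overlapped NOD/ShiLtJ (1125 to 1510 CPM). Immobilized NOD/ShiLtJ limbs held 1784 to 2760 CPM of Postn, above the other 7 by 1.84 ± 0.44 (adjusted p = 0.00748), and this passed in all 24 fits that left out 1 library, with adjusted p up to 0.0472. With the muscle covariate it was 1.88 (adjusted p = 0.0761). Control NOD/ShiLtJ limbs held 54.7, 24.7 and 14 CPM of Ankrd1, against a median of 1.999 CPM over all control limbs (3.47 ± 0.73 above the other 7, adjusted p = 0.00362). With the muscle score as covariate that difference was 0.08 (adjusted p = 1), and without control replicate 4 it was 2.76 (adjusted p = 0.0876). Muscle markers summed to 82440, 18370 and 28950 CPM in these libraries, against a median of 1652 CPM over all control limbs. Whether muscle content accounts for the strain difference was not tested.

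Ankrd1 was also above the other strains in immobilized limbs of NOD/ShiLtJ (2.88 ± 0.67, adjusted p = 0.00609) and of CAST/EiJ (2.64 ± 0.68, adjusted p = 0.00834). The CAST/EiJ value rested on replicate 2, at 31.5 CPM: without it the difference was 0.33 (adjusted p = 0.862). The NOD/ShiLtJ value was 1.74 (adjusted p = 0.174) without replicate 5 and 0.88 (adjusted p = 0.609) with the muscle covariate.

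Ptgs2 was highest in NZO/HlLtJ in both limbs, through 1 library in each. In the control limbs replicate 4 held 32.9 CPM and the other replicates 0.515 and 0.384 CPM, and the difference from the other strains was 4.85 ± 0.77 (log2, adjusted p = 0.000752). Without replicate 4, Ptgs2 fell under the filter on low counts in the control limbs and was not tested. In the immobilized limbs replicate 5 held 107 CPM and the others 4.32 and 1.02 CPM. The difference of 4.41 ± 0.72 (adjusted p = 0.000372) became 0.63 (adjusted p = 0.825) without replicate 5. CAST/EiJ was lowest, with 0 to 1 count in each control library and 0 to 9 counts in each immobilized library.

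**Figure D5:**
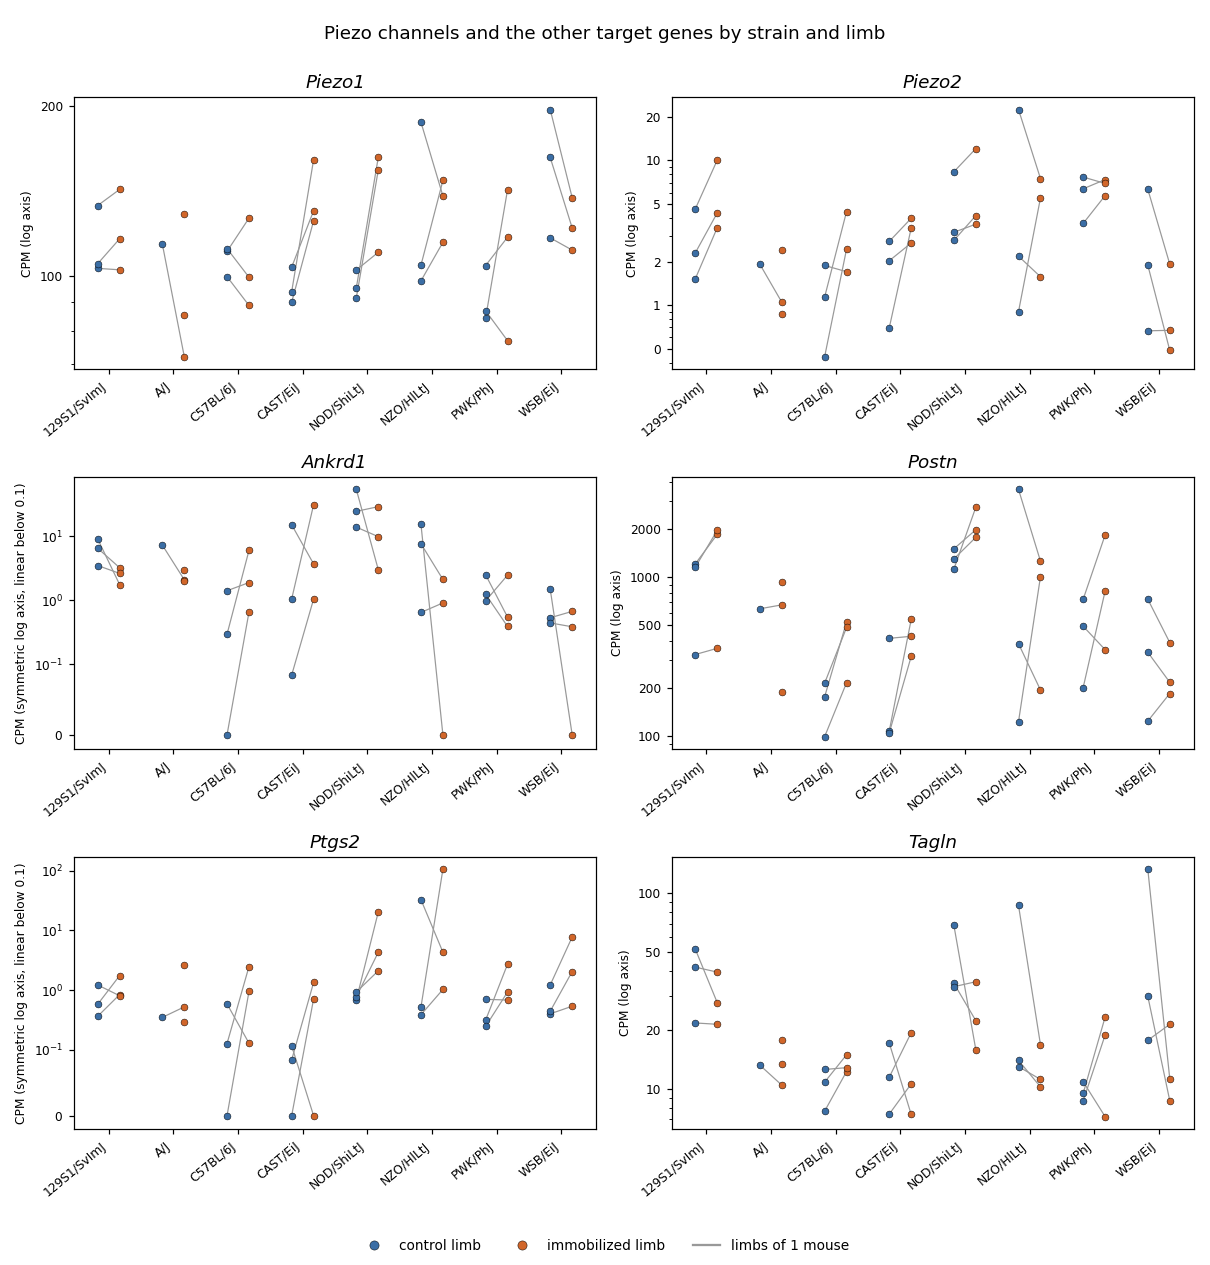
Level of Piezo1, Piezo2, Ankrd1, Postn, Ptgs2 and Tagln in each of 46 libraries (y axis: CPM on a log scale, linear below 0.1 for Ankrd1 and Ptgs2) by strain, with control limbs in blue, immobilized limbs in orange and lines joining the limbs of 1 mouse. Piezo1 stays between 72 and 198 CPM throughout, while Ptgs2 reaches 107 CPM in 1 NZO/HlLtJ cast limb and Tagln 133 CPM in 1 WSB/EiJ control limb.

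The counts over strains changed with the muscle score and with single libraries. The share of all genes passing in each of these refits is not given here. With the muscle score as covariate, 2 of 10 genes differed among strains in the control limbs (Ptgs2 and Tagln) and 3 in the immobilized limbs (Piezo2, Cyr61 and Ptgs2). Without the control library of NZO/HlLtJ replicate 4 or 5, 8 genes differed in the control limbs, and 7 did without that of WSB/EiJ replicate 2. Without the immobilized library of NZO/HlLtJ replicate 5, 4 differed in the immobilized limbs. NZO/HlLtJ control replicate 4 stood apart from the other control libraries of its strain in Postn (3570 CPM against 124 and 382), Ptgs2, Piezo2, Tagln and Wwtr1 (90 CPM against 13.9 and 20.8). This library was also the highest of them in Yap1 (74.8 CPM against 21.1 and 27.2) and Piezo1 (188 against 105 and 98.2). The same held for Ctgf (138 against 29 and 49.2), Cyr61 (98.8 against 12.1 and 39) and Ankrd1 (15.6 against 0.643 and 7.69). Its tendon and periosteal fibroblast markers summed to 4657 CPM against 626.5 and 934.9, and its osteoblast markers to 44580 against 4760 and 15460. Smooth muscle and pericyte markers summed to 1866 CPM against 434.8 and 671.3. Its skeletal muscle markers, at 1414 CPM, lay between the others (420.9 and 7842). What these cells contribute was not tested.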

How the data were processed

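RNA-seq of the tibial metaphysis was deposited as 1 table of raw counts per gene for 48 libraries. The counts were made by the authors with featureCounts on mm10, and DESeq2 is listed among their tools, per the submitters' processing notes. The sources used here do not give the aligner, annotation, versions or strand setting. Libraries were made from total RNA with a stranded mRNA kit, per the labels' protocols. Columns were matched to samples by the library names in the titles, and 2 A/J control libraries with under 100000 counts were left out.

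The 10 genes and all gene and marker lists were chosen with earlier results of these data known. Limb effects came from edgeR 4.0.16 (R 4.3.3, limma 3.58.1): TMM scaling, filterByExpr over groups, and the quasi-likelihood test on 44 libraries with the mouse as block and a limb effect per strain, so all strains share 1 estimate of the spread (14 residual degrees of freedom). The mean over strains, each strain, and the difference among strains were tested, with Benjamini-Hochberg adjustment over 16882 genes and a threshold of 0.05. Strain differences were tested within control and within immobilized limbs, over all 8 strains and for each strain against the other 7. Each paired limb comes from the same mouse per the series design; deviations of the limbs of a mouse from their group means correlated at a median of 0.09 (-0.26 to 0.55) over 21 mice. Limb differences used log2 CPM with a prior count of 2. Correlations over mice have two-sided permutation p-values from 100000 permutations, of which 1e-05 is the smallest possible. Mice were shuffled over all strains and not within them, so differences between strains enter these p-values. A marker score is the mean log2 CPM of a list.

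Named genes are all 10 members, up to 4 others per pathway list by smallest p among those past the threshold (or the 1 with the smallest p), and the 3 genes with the highest r to each member. Of 13 marker lists, those for osteocytes, growth plate chondrocytes, endothelium, tendon and periosteal fibroblasts, Schwann cells, adipocytes, neutrophils and erythroid cells had 0 genes past the threshold in the mean limb effect (edgeR); 7 growth plate chondrocyte markers had an unadjusted p under 0.05 and were called by DESeq2 as higher, and the others had 0 to 3 and 0 or 1. Of 11 smooth muscle and pericyte markers 1 rose and 1 fell. The labels do not say that replicates differ in cage, litter or day, and p-values measure the spread between these mice. For the limb effect in A/J, with 1 pair, that spread comes from the other strains alone. Gene lengths and positions are from GENCODE M21 on GRCm38, promoters from RefSeq on GRCm38.p6. The model was also run on counts simulated from its own fit, which cannot test the assumptions of that fit. Alternatives were RLE size factors, DESeq2 1.42.0, no filter, no block, all libraries, marker scores as covariates and leaving out each mouse or library; 3 more (NZO/HlLtJ mouse 4 left out together with A/J mouse 1 or with NZO/HlLtJ mouse 5, and CAST/EiJ alone) were chosen after seeing the data. No pair of libraries in a group agreed within sampling noise (chi-square per degree of freedom at least 6.06).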

Additional observations from a re-analysis of the deposited data

Results flagged for a closer look

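In these cases all mice of a strain differed between limbs in one direction and all mice of another in the opposite direction. The difference between the strains of each pair was not tested.

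Piezo1 was higher in the cast limb of all 3 CAST/EiJ and all 3 NOD/ShiLtJ mice and lower in that of all 3 WSB/EiJ mice. The mean log2 difference between limbs exceeded that of WSB/EiJ by 0.86 in CAST/EiJ and by 0.88 in NOD/ShiLtJ. The osteoblast score was higher in the cast limb by 2.28 in CAST/EiJ and 1.87 in NOD/ShiLtJ and differed by -0.14 in WSB/EiJ. Over all 8 strains, edgeR gave Piezo1 an adjusted p of 0.16 for any difference in limb effect.

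Ankrd1 was higher in the cast limb of all 3 C57BL/6J mice and lower in that of all 3 129S1/SvImJ mice, with means 3.11 apart. The C57BL/6J control limbs held 9, 0 and 2 counts of Ankrd1. The muscle score differed between limbs by 0.98 in C57BL/6J and -1.84 in 129S1/SvImJ on average, and the test over all strains gave an adjusted p of 0.636.

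Tagln was higher in the cast limb of all 3 C57BL/6J mice and lower in that of all 3 mice in 129S1/SvImJ and in NZO/HlLtJ, with means 0.72 and 1.38 apart. The smallest of these differences within a mouse were 0.03 in C57BL/6J mouse 6 and -0.02 in 129S1/SvImJ mouse 6, and the test over all strains gave an adjusted p of 0.462.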

How the results depend on the processing

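Of the counts of members past the threshold, 80 under other settings (leaving out single mice or libraries aside) were within 1.5 times the reported count and 19 were not. In the mean limb effect, 0 members became 1 with DESeq2 or without NZO/HlLtJ mice 4 and 5 (Ptgs2), 1 with the skeletal muscle covariate (Postn) and 5 when NZO/HlLtJ mouse 4 and A/J mouse 1 were both left out. In A/J, 0 became 2 with DESeq2 or without NZO/HlLtJ mice 4 and 5. In CAST/EiJ, 3 became 5 with the muscle covariate, without NZO/HlLtJ mice 4 and 5 or in the strain's own 6 libraries, and 0 with the osteoblast covariate. In NOD/ShiLtJ, 0 became 1 with the muscle covariate and 2 without NZO/HlLtJ mice 4 and 5. For differences in limb effect among strains, 0 became 2 without NZO/HlLtJ mice 4 and 5 and 3 with DESeq2. For strain differences, 4 in the control limbs became 7 with DESeq2 and 2 with the muscle covariate, and 7 in the immobilized limbs became 3 with the muscle covariate. The cause was not tested. The share of all genes passing was not set beside these counts or the refit and DESeq2 counts given elsewhere. A change in them can therefore not be told apart from a change over all genes.

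Each mouse gave both limbs, so the mouse was the block. With no replicate block, the members called went from 0 to 1 in the mean limb effect (Ptgs2) and from 3 to 1 in CAST/EiJ (Cyr61), and no other count moved by more than 1.5 times.

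Leaving out 1 mouse or library at a time gave 0 to 4 members in the mean limb effect, 0 to 2 in A/J, 0 to 5 in CAST/EiJ, 0 to 1 in each of NOD/ShiLtJ and PWK/PhJ, 0 to 2 for differences among strains, 3 to 8 for control limbs and 4 to 9 for immobilized limbs. It gave 0 throughout in 129S1/SvImJ, C57BL/6J, NZO/HlLtJ and WSB/EiJ.

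Some mean effects changed sign, on the log2 scale. With the osteoblast covariate they were -0.066 for Piezo1, -0.27 for Piezo2, -0.26 for Yap1, -0.13 for Wwtr1, -0.48 for Ctgf, -0.48 for Cyr61, -0.04 for Postn and -0.29 for Ptgs2, and in CAST/EiJ -0.14 for Yap1, -0.43 for Wwtr1 and -0.17 for Cyr61. With the muscle covariate Ankrd1 was at 1.67 and Tagln at 0.13. Ctgf, at 0.003 in the reported fit, was at -0.007 with RLE size factors, -0.014 with no filter, -0.005 with DESeq2, -0.045 without NZO/HlLtJ mice 4 and 5, and between -0.075 and 0.271 without single mice, below 0 in 10 of 22. The depth limits Ptgs2, Piezo2 and Ankrd1 most, which held 0 or few counts in many libraries.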
